A study of Mus musculus with 16 samples.

Results

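RNA sequencing compared AML246, a line of mouse acute myeloid leukaemia cells, 8 days and 4 days after doxycycline was removed. The comparison used 4 of the 16 libraries of a 24 day course, chosen by their titles, with 2 replicates (A and B) at each time. Cells of both groups grew with interleukin-3 and had received 0.1 µg/mL doxycycline for 12 days before withdrawal, so that 8 days off is day 20 of the course and 4 days off is day 16. Both groups were sorted as total viable cells. The other libraries were 12 days off doxycycline, 4, 8 and 12 days on it, Cd11b-high cells sorted after 12 days on it, and untreated cells at day 0, and they enter below only where named. AML246 is a single line, and the labels do not say whether replicates are separate cultures, so that p-values measure only a spread between libraries that may be technical.

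The series title describes the course as a restoration and then a knockdown of PU.1, the transcription factor encoded by Spi1. PU.1 belongs to the ETS family and is needed to make granulocytes, macrophages and B cells from blood progenitors. It binds sites with a GGAA core near genes of myeloid function, such as integrins, Fc receptors and subunits of the phagocyte oxidase, and low PU.1 is known in mouse models to hold myeloid cells in an immature state. The comparison of 8 with 4 days off shows what changed after most of the fall of Spi1 had taken place.

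The 4 libraries held between 15594698 and 21809646 counted reads over 13652 genes, and all 16 held between 12962801 and 26509803. Levels are given as CPM, reads of a gene scaled to a common library size, after TMM normalization. A gene was called where the edgeR quasi-likelihood test over all genes gave a Benjamini-Hochberg adjusted p under 0.05, and folds are 8 days off over 4 days off. Mitochondrial genes took 2.79% and 2.84% of the counts 8 days off, against 3.59% and 3.01% 4 days off. Along the first principal component of the 500 most variable genes, which held 77.54% of their variance, the libraries stood at -37.9 and -34.3 for 8 days off and at -11.6 and -5.13 for 4 days off. The day 0 libraries stood at -38.9 and -38.4 on the same axis, those of 12 days off at -51.2 and -45.9, and those of 12 days on doxycycline at 34.4 and 33.1. The 2 libraries of 12 days off differed from each other more than those of any other group, with a chi-square per degree of freedom of 73.55 against 2.972 to 18.94 in the other groups.

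Spi1 (Entrez 20375) was modestly lower in both libraries of 8 days off. It stood at 48.1 and 44.8 CPM 8 days off, against 65.0 and 56.6 CPM 4 days off, a difference that was not called (log2 fold -0.39, SE 0.15, edgeR adjusted p = 0.075). The values of the groups did not overlap. Over the alternative settings the adjusted p ran from 0.0057, in the edgeR fit without the 12 days off pair, to 0.32 without 4 days off replicate A, with 0.021 in the edgeR fit of the 4 libraries alone. Spi1 averaged 222 CPM after 12 days on doxycycline, 61.5 CPM at day 0 and 46.0 CPM 12 days off. Itgam (Entrez 16409), the gene of Cd11b, an integrin chain found on mature granulocytes and macrophages, was one of the genes that moved most. It stood at 4.23 and 5.34 CPM 8 days off, against 57.0 and 82.4 CPM 4 days off (log2 fold -3.86, SE 0.20, edgeR adjusted p = 2.8e-08), a level 14.5-fold lower 8 days off. Both libraries of 8 days off lay far below both of 4 days off, and above the 1.41 and 1.77 CPM of day 0. In bulk RNA of a culture fewer cells of a type and less RNA per cell cannot be told apart.

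**Figure D1:**
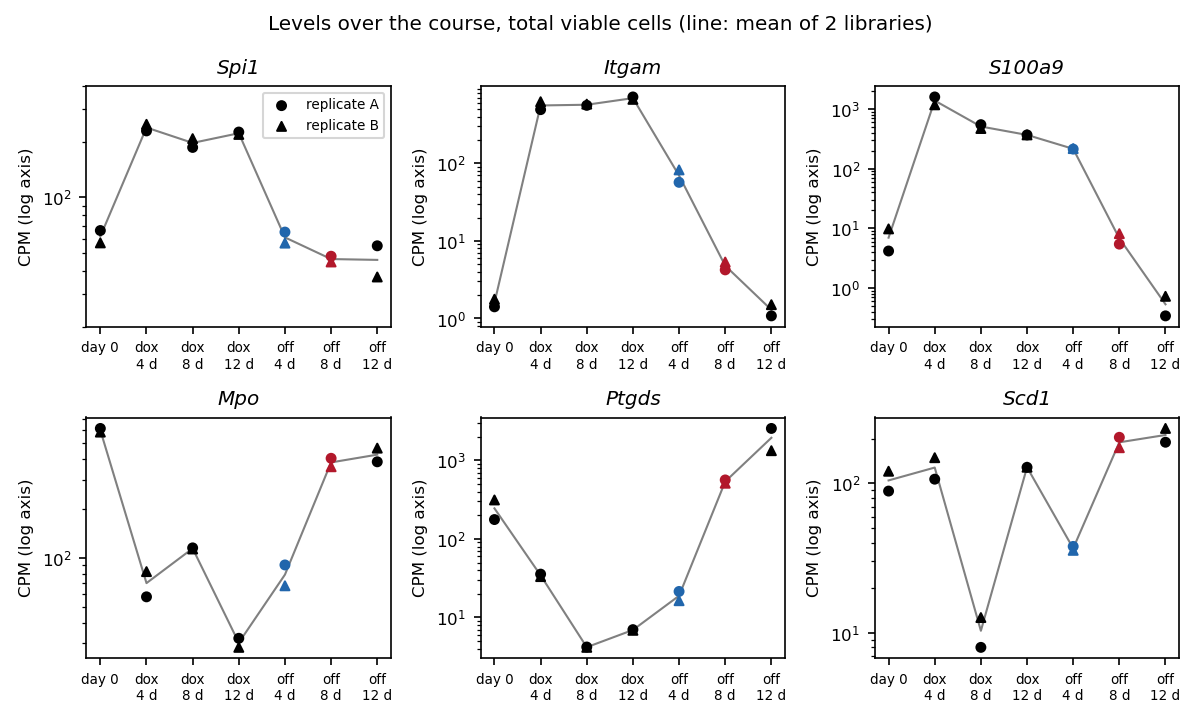
CPM (log axis) of Spi1, Itgam, S100a9, Mpo, Ptgds and Scd1 in total viable cells, from day 0 through 4, 8 and 12 days on doxycycline to 4, 8 and 12 days off. Circles are replicate A and triangles replicate B, the line joins the means of the 2 libraries, red marks 8 days off and blue marks 4 days off. Spi1 had 48.1 and 44.8 CPM 8 days off against 65.0 and 56.6 CPM 4 days off, whereas Itgam and S100a9 were lower and Mpo, Ptgds and Scd1 higher 8 days off.

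Across the transcriptome, 3276 of 13652 genes (24.0%) were called between the 2 times, 1580 higher (11.6%) and 1696 lower (12.4%) 8 days off. Of these, 339 were higher and 474 lower by over 2-fold, and 75.2% of the called genes differed by less than 2-fold. The median log2 fold of all genes was -0.0024. The number of calls depended on each library, since 1532 remained without 8 days off replicate A, 1832 without 8 days off replicate B, 2027 without 4 days off replicate A and 1975 without 4 days off replicate B. Leaving the 12 days off pair out of the fit gave 5205 calls.

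**Figure D2:**
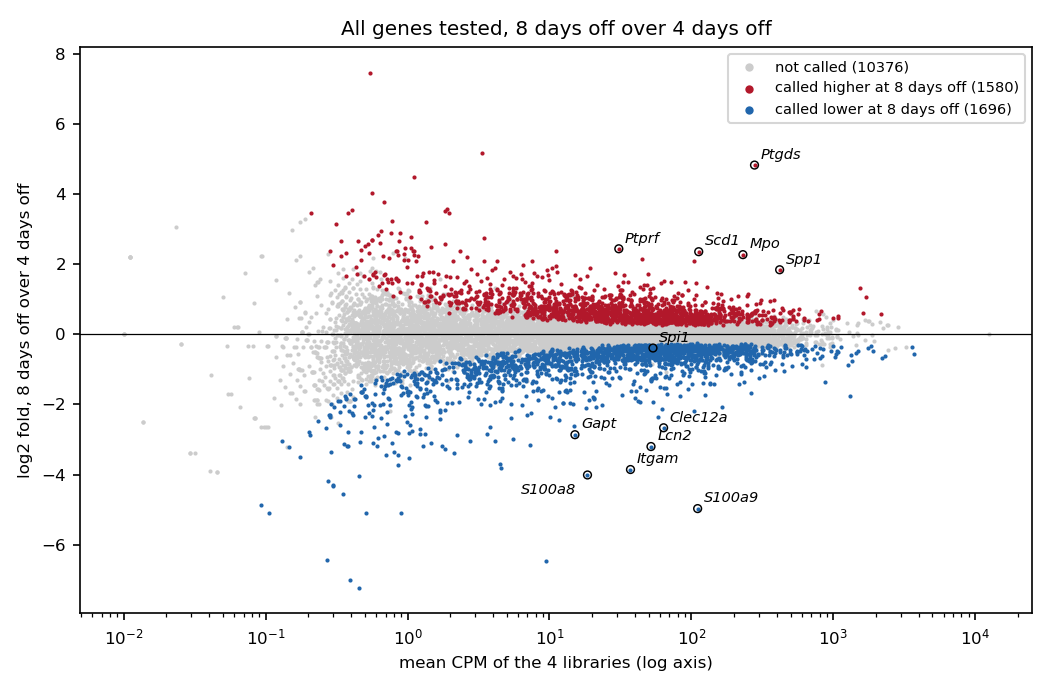
Log2 fold of each of the 13652 genes (8 days off over 4 days off) against its mean CPM in the 4 libraries (log axis). Red points are the 1580 genes called higher, blue points the 1696 called lower and grey points those not called, and the circles name genes given in the text. Spi1 lies at -0.39 while S100a9 lies at -4.97 and Ptgds at 4.83.

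Where the mean CPM was 10 or more, several of the largest called falls were in genes of mature granulocytes. Some genes of lower level fell more, among them Ngp, described below. S100a9, a subunit of the neutrophil protein calprotectin, stood at 5.46 and 8.17 CPM 8 days off, against 213 and 217 CPM 4 days off (log2 fold -4.97, SE 0.29, edgeR adjusted p = 2.7e-07). Its partner S100a8 stood at 1.69 and 2.60 CPM 8 days off, against 38.0 and 31.8 CPM 4 days off (log2 fold -4.01, SE 0.30, edgeR adjusted p = 1.3e-06). Lcn2, a neutrophil granule protein that binds iron carriers of bacteria, stood at 8.09 and 12.2 CPM 8 days off, against 88.7 and 98.8 CPM 4 days off (log2 fold -3.20, SE 0.16, edgeR adjusted p = 2.8e-08). For all 3 genes replicate B was above replicate A 8 days off. Cyp4f18, a cytochrome P450 that breaks down leukotriene B4, stood at 4.23 and 4.06 CPM 8 days off, against 22.1 and 28.7 CPM 4 days off (log2 fold -2.61, SE 0.18, edgeR adjusted p = 5e-07). The lipoxygenase gene Alox15 stood at 2.96 and 4.28 CPM 8 days off, against 16.5 and 23.2 CPM 4 days off (log2 fold -2.44, SE 0.30, edgeR adjusted p = 6.6e-05). Slc40a1, which encodes the iron exporter ferroportin, stood at 16.8 and 20.9 CPM 8 days off, against 91.3 and 104 CPM 4 days off (log2 fold -2.37, SE 0.18, edgeR adjusted p = 9.4e-07). These 6 genes were chosen among those whose libraries of the 2 times did not overlap, so that separation was set by the choice.

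Adaptor, lectin and complement genes made up most of the other large falls. Gapt, an adaptor protein of blood cells, stood at 3.29 and 3.97 CPM 8 days off, against 20.6 and 32.6 CPM 4 days off (log2 fold -2.86, SE 0.25, edgeR adjusted p = 3e-06). Clec12a, an inhibitory C-type lectin of myeloid cells, stood at 15.8 and 18.9 CPM 8 days off, against 106 and 114 CPM 4 days off (log2 fold -2.67, SE 0.21, edgeR adjusted p = 1.7e-06). The complement component C3 stood at 18.4 and 27.9 CPM 8 days off, against 88.8 and 115 CPM 4 days off (log2 fold -2.14, SE 0.25, edgeR adjusted p = 4.3e-05). The 12 largest falls that met the naming rule also held Ces2g, a carboxylesterase (log2 fold -2.19), and Sspo (log2 fold -2.09). None of the 12 calls was lost without any 1 of the 4 libraries.

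Promoters of 4 of these genes are shown because both calprotectin genes and Itgam lead the falls among genes that met the naming rule, which asks for a mean of at least 10 CPM, and Mpo, described below, is among the largest rises. Each runs from 250 bases before to 50 after a RefSeq transcript start on GRCm38.p6, 5′ to 3′ on the gene's strand, with matches to the PU.1 core GAGGAAGT, the shorter ETS core GGAAGT (which each GAGGAAGT contains) or the E-box CACGTG in capitals, on either strand.
S100a8 (chr3:90668821-90669120, plus strand): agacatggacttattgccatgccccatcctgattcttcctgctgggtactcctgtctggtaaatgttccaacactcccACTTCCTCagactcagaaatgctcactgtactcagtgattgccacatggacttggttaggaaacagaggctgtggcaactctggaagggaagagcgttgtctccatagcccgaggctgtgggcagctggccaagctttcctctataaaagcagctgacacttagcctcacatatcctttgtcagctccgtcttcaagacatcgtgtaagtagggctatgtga
S100a9 (chr3:90695672-90695971, minus strand): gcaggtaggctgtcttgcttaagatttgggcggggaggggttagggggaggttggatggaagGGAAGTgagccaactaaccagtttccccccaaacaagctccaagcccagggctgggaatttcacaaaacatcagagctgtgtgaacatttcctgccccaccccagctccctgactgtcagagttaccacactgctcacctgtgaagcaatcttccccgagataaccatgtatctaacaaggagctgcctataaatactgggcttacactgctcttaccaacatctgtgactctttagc
Itgam (chr7:128062390-128062689, plus strand): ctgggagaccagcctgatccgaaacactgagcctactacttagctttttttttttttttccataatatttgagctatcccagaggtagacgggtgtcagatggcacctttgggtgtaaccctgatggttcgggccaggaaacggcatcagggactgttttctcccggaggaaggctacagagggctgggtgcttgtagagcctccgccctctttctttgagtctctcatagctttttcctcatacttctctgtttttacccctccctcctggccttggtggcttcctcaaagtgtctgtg
Mpo (chr11:87793534-87793833, plus strand): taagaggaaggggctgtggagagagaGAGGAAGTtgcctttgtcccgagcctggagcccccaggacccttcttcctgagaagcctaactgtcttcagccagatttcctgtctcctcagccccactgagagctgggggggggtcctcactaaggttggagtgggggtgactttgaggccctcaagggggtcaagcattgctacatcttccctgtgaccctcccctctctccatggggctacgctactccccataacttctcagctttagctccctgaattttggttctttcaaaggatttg

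The S100a8 window held GAGGAAGT on the reverse strand and the Mpo window held it on the forward strand, although the genes moved in opposite directions. The S100a9 window held only the shorter core, and the Itgam window held no exact match to any of the 3 motifs. The Itgam window did hold the GGAA core of PU.1 sites on both strands. On each strand a stretch with this core differed from GAGGAAGT only in the last base, so the lack of an exact match does not show that PU.1-like sequence is absent. Of 12979 RefSeq promoters of 10257 tested genes, 3.24% held GAGGAAGT on either strand, compared with 4.68% of promoters of genes called lower and 2.91% of those called higher. Among genes called lower by over 2-fold the share was 6.11%. The AP-1 motif TGANTCA (in which N is any base) was in 5.28% of all promoters and in 10.2% of those of genes called lower by over 2-fold, and the GATA core AGATAA in 6.75% and 11.1%. CACGTG was in 9.78% of all promoters, in 12.2% of those of genes called higher and in 10.2% of those of genes called higher by over 2-fold. Its share was 8.4% for genes called lower and 6.56% for genes called lower by over 2-fold. GGAAGT was in 28.3% of all promoters, in 29.9% of those of genes called lower and in 26.7% of those of genes called lower by over 2-fold. Its share was 26.8% for genes called higher and 19.1% for genes called higher by over 2-fold. These shares were not tested, and a match in such a window is a description and not a binding site.

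The counts of each list below stand beside 11.6% of all genes called higher and 12.4% called lower. Most neutrophil genes were called lower. Of 24 measured genes of neutrophil granules and maturation, 20 were called lower and 0 higher, with a median log2 fold of -1.79. Ngp, a neutrophil granule protein, stood at 0.0470 and 0.353 CPM 8 days off, against 14.1 and 23.0 CPM 4 days off (log2 fold -6.46, SE 0.42, edgeR adjusted p = 2.8e-07). Only 1 and 8 reads of Ngp were counted 8 days off, so its fold is imprecise, and its log2 fold was -8.44 without 8 days off replicate B and -5.69 without 8 days off replicate A. The neutrophil list summed to 1219 and 1395 CPM 8 days off, against 3570.5 and 3496 CPM 4 days off.

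Eosinophil and basophil genes split. Of 11 measured eosinophil genes, 7 were called lower and 3 higher. The count of higher calls was 1 without 8 days off replicate A and 1 without 4 days off replicate A. Ear1, an eosinophil ribonuclease, stood at 0.376 and 0.883 CPM 8 days off, against 7.33 and 9.28 CPM 4 days off (log2 fold -3.69, SE 0.33, edgeR adjusted p = 3e-06), with a log2 fold of -4.44 without 8 days off replicate B, and Rnase12 at 14.02 and 10.1 CPM 8 days off, against 3.37 and 3.79 CPM 4 days off (log2 fold 1.75, SE 0.27, edgeR adjusted p = 0.00035). Ear1 shares sequence with close paralogs, so that reads of the family may be split between them. Ccr3, the eotaxin receptor, had 1 and 0 reads 8 days off, against 10 and 13 reads 4 days off, too few for a fold. The list summed to 2709.8 and 2224 CPM 8 days off, against 1189 and 1357 CPM 4 days off. Most of that sum was Epx, eosinophil peroxidase, at 2429 and 2004 CPM 8 days off, against 818 and 953 CPM 4 days off (log2 fold 1.32, named after its values were seen, and not called without 8 days off replicate A or 4 days off replicate A). Of 10 basophil and mast cell genes, 2 were called higher and 3 lower. Mcpt8, a basophil protease, stood at 5.32 and 4.86 CPM 8 days off, against 21.9 and 17.9 CPM 4 days off (log2 fold -1.97, SE 0.15, edgeR adjusted p = 9.9e-07). The higher ones, the cytokine genes Il13 and Il4, were both not called without 8 days off replicate A or 4 days off replicate A, and 1 of the 2 was not called without 4 days off replicate B. Lower calls numbered 1 without 8 days off replicate B and 1 without 4 days off replicate A.

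**Figure D3:**
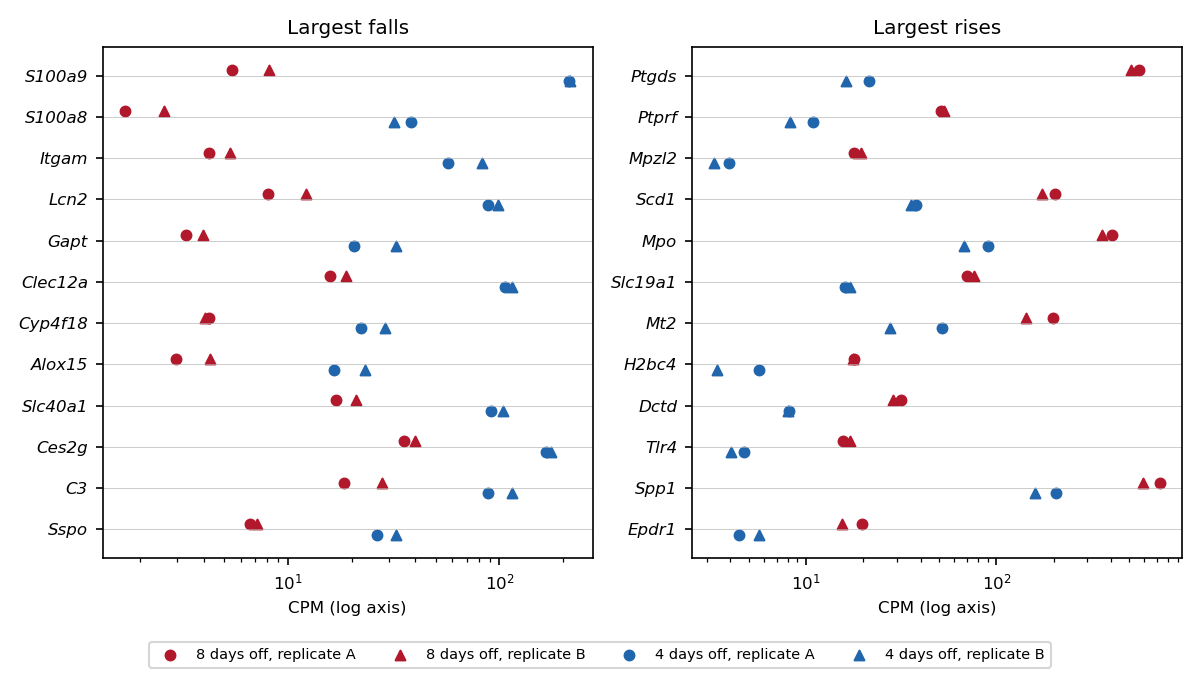
CPM (log axis) of the 12 genes with the largest falls (left) and the 12 with the largest rises (right) that met the naming rule, with 8 days off in red above 4 days off in blue. Circles are replicate A and triangles replicate B. The rule asked that the libraries of the 2 times not overlap, so their separation in the 24 genes was set by the choice. Itgam had 4.23 and 5.34 CPM 8 days off against 57.0 and 82.4 CPM 4 days off.

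Among receptors and kinases that carry signals at the myeloid cell surface, calls went in the lower direction. Of 31 measured Fc receptor, ITAM adaptor and proximal kinase genes, 17 were called lower and 0 higher (median log2 fold -0.48). The count of lower calls was 11 without 8 days off replicate A and 10 without 4 days off replicate B. Cd300lf, an inhibitory receptor, stood at 0.470 and 0.265 CPM 8 days off, against 4.07 and 3.66 CPM 4 days off (log2 fold -3.39, SE 0.29, edgeR adjusted p = 2.3e-06). Clec5a, a lectin that signals through the adaptor Dap12, stood at 0.517 and 0.530 CPM 8 days off, against 3.31 and 4.55 CPM 4 days off (log2 fold -2.88, SE 0.23, edgeR adjusted p = 1.7e-06). Trem1, which uses the same adaptor, stood at 0.988 and 2.38 CPM 8 days off, against 8.20 and 9.72 CPM 4 days off (log2 fold -2.39, SE 0.25, edgeR adjusted p = 1.1e-05), and its log2 fold was -3.17 without 8 days off replicate B. Clec5a and Trem1 were under 10 CPM in all 4 libraries.

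Several oxidase subunits and integrin chains were called lower. Of 8 measured genes of the phagocyte NADPH oxidase, 5 were called lower and 0 higher, and the same number was called lower without any 1 of the 4 libraries. Hvcn1, a proton channel that sustains the oxidase, stood at 65.3 and 67.9 CPM 8 days off, against 167 and 180.3 CPM 4 days off (log2 fold -1.38, SE 0.12, edgeR adjusted p = 3.1e-06). Ncf4, a cytosolic subunit, stood at 78.7 and 78.0 CPM 8 days off, against 180.3 and 154 CPM 4 days off (log2 fold -1.09, SE 0.12, edgeR adjusted p = 1.5e-05). Of 17 integrin chains, 9 were called lower and 1 higher. Lower calls numbered 3 without 8 days off replicate A, 4 without 8 days off replicate B, 5 without 4 days off replicate A and 4 without 4 days off replicate B. The 1 higher call, Itga9, was lost whichever of the 4 libraries was left out. Itgb2, the partner chain of Itgam, stood at 480.3 and 491 CPM 8 days off, against 778 and 804 CPM 4 days off (log2 fold -0.70, SE 0.14, edgeR adjusted p = 0.0021), a far smaller fall than that of Itgam. Itga2b, an integrin chain of platelets and early progenitors, stood at 134 and 119 CPM 8 days off, against 417 and 388 CPM 4 days off (log2 fold -1.67, SE 0.16, edgeR adjusted p = 6e-06). Of 14 complement and complement receptor genes, 6 were called lower and 1 higher. The counts were 1 higher and 4 to 5 lower when any 1 of the 4 libraries was left out.

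Textbook targets of PU.1 were lower in part. Of 27 measured, 11 were called lower and 2 higher (median log2 fold -0.33). The count of higher calls was 1 without 8 days off replicate A and 1 without 4 days off replicate B. Coro1a, an actin regulator of leukocytes, stood at 121 and 117 CPM 8 days off, against 241 and 277 CPM 4 days off (log2 fold -1.13, SE 0.12, edgeR adjusted p = 1.7e-05). Ptprc, the leukocyte antigen CD45, stood at 0.753 and 0.309 CPM 8 days off, against 2.17 and 2.08 CPM 4 days off (log2 fold -2.01, SE 0.27, edgeR adjusted p = 0.00011). Tlr4, the receptor for bacterial lipopolysaccharide, went the other way and stood at 15.6 and 17.0 CPM 8 days off, against 4.72 and 4.04 CPM 4 days off (log2 fold 1.89, SE 0.22, edgeR adjusted p = 2.8e-05). Of 16 macrophage and monocyte genes, 6 were called lower and 2 higher. Higher calls numbered 0 without 8 days off replicate A and 0 without 4 days off replicate B. Vcam1, an adhesion molecule, stood at 21.7 and 23.1 CPM 8 days off, against 75.7 and 94.5 CPM 4 days off (log2 fold -1.92, SE 0.16, edgeR adjusted p = 1.7e-06). Lyz2, lysozyme, stood at 51.1 and 57.6 CPM 8 days off, against 126 and 114 CPM 4 days off (log2 fold -1.15, SE 0.14, edgeR adjusted p = 5e-05). Adgre1, the F4/80 antigen, stood at 1.69 and 1.06 CPM 8 days off, against 3.26 and 4.04 CPM 4 days off (log2 fold -1.40, SE 0.24, edgeR adjusted p = 0.0009).

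Chemoattractant receptors and genes of lipid mediators and lysosomes were lower in part. Of 18 chemokine and chemoattractant receptors, 8 were called lower and 0 higher. The count of lower calls was 5 without 8 days off replicate A. Ltb4r1, a receptor for leukotriene B4, stood at 39.4 and 42.8 CPM 8 days off, against 74.4 and 78.4 CPM 4 days off (log2 fold -0.89, SE 0.15, edgeR adjusted p = 0.00063). Of 17 eicosanoid genes, 7 were called lower and 3 higher. Lower calls numbered 4 without 8 days off replicate A. Ptgs1, cyclooxygenase 1, stood at 34.6 and 41.8 CPM 8 days off, against 79.2 and 83.4 CPM 4 days off (log2 fold -1.09, SE 0.12, edgeR adjusted p = 1.6e-05). Of 49 lysosomal genes, 12 were called lower and 4 higher, against 12.4% and 11.6% of all genes. The counts were 3 higher and 8 to 12 lower when 1 library was left out. Galns, a sulphatase, stood at 117 and 135 CPM 8 days off, against 235 and 242 CPM 4 days off (log2 fold -0.92, SE 0.12, edgeR adjusted p = 8e-05). Grn, progranulin, stood at 208 and 251 CPM 8 days off, against 387 and 429 CPM 4 days off (log2 fold -0.83, SE 0.14, edgeR adjusted p = 0.00053).

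Some interferon-stimulated genes were lower, and most were not called. Of 37 measured, 12 were called lower and 0 higher (median log2 fold -0.28). Ddx58, which encodes the viral RNA sensor RIG-I, stood at 29.3 and 34.7 CPM 8 days off, against 59.2 and 56.2 CPM 4 days off (log2 fold -0.85, SE 0.13, edgeR adjusted p = 0.00035). Ifi27l2a stood at 1.46 and 1.77 CPM 8 days off, against 4.40 and 4.55 CPM 4 days off (log2 fold -1.47, SE 0.24, edgeR adjusted p = 0.00049). Of 30 Toll-like receptor and interleukin-1 pathway genes, 5 were called higher and 5 lower, against 11.6% and 12.4% of all genes. The counts were 3 to 5 higher and 3 to 5 lower when any 1 of the 4 libraries was left out. Irak3, an inhibitor of the pathway, stood at 62.3 and 67.4 CPM 8 days off, against 111 and 117 CPM 4 days off (log2 fold -0.81, SE 0.13, edgeR adjusted p = 0.00043).

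**Figure D4:**
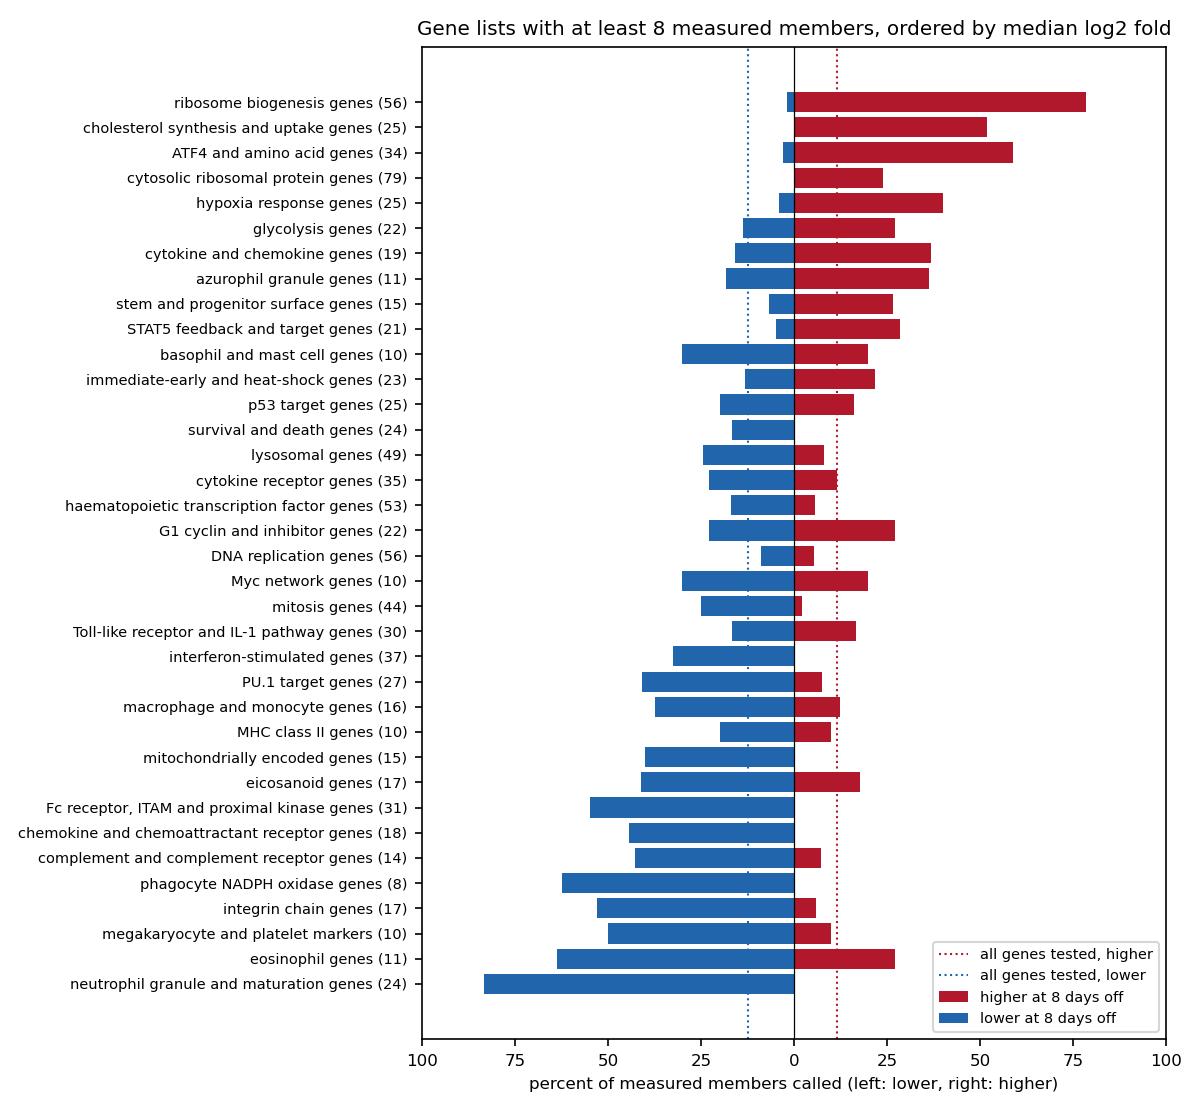
Percent of the measured members of each gene list with at least 8 of them that were called higher (red, to the right) or lower (blue, to the left) 8 days off, ordered by the median log2 fold. Dotted lines give the share of all 13652 genes called higher (11.6%) and lower (12.4%), and the number of measured members stands in brackets. Ribosome biogenesis genes have the longest bar to the right with 44 of 56 called higher, and neutrophil genes the longest to the left with 20 of 24 called lower.

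The largest rises among genes that met the naming rule were in genes of varied function. Ptgds, a prostaglandin D synthase, stood at 564 and 512 CPM 8 days off, against 21.4 and 16.3 CPM 4 days off (log2 fold 4.83, SE 0.32, edgeR adjusted p = 8.9e-07), 28.5-fold higher 8 days off. Scd1, the desaturase that makes monounsaturated fatty acids, stood at 204 and 173 CPM 8 days off, against 37.8 and 35.6 CPM 4 days off (log2 fold 2.36, SE 0.20, edgeR adjusted p = 2.3e-06). Slc19a1, the reduced folate carrier, stood at 70.2 and 76.5 CPM 8 days off, against 16.02 and 16.9 CPM 4 days off (log2 fold 2.16, SE 0.14, edgeR adjusted p = 2.8e-07). In each of these genes the lower library of 8 days off was several times above the higher library of 4 days off. The naming rule took the largest folds among genes whose libraries of the 2 times did not overlap, so that this separation was set by the choice. Dctd, a deaminase on the route to thymidine nucleotides, stood at 31.7 and 28.8 CPM 8 days off, against 8.09 and 8.02 CPM 4 days off (log2 fold 1.91, SE 0.16, edgeR adjusted p = 2.1e-06). Spp1, osteopontin, a secreted matrix protein, stood at 722 and 588 CPM 8 days off, against 205 and 159.6 CPM 4 days off (log2 fold 1.84, SE 0.16, edgeR adjusted p = 2.1e-06). Mt2, a metallothionein that binds zinc, stood at 198 and 143 CPM 8 days off, against 51.5 and 27.5 CPM 4 days off (log2 fold 2.10, SE 0.28, edgeR adjusted p = 0.00015), with replicate A above replicate B at both times.

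Surface and other genes completed the set. Ptprf, a receptor phosphatase, stood at 51.4 and 52.8 CPM 8 days off, against 10.8 and 8.27 CPM 4 days off (log2 fold 2.44, SE 0.18, edgeR adjusted p = 9e-07). Mpzl2, an adhesion protein, stood at 17.8 and 19.5 CPM 8 days off, against 3.91 and 3.28 CPM 4 days off (log2 fold 2.37, SE 0.20, edgeR adjusted p = 1.9e-06). Epdr1 stood at 19.6 and 15.4 CPM 8 days off, against 4.45 and 5.68 CPM 4 days off (log2 fold 1.79, SE 0.17, edgeR adjusted p = 6.1e-06). Together with Mpo, Tlr4 and the histone gene H2bc4 (log2 fold 1.96, counted within a family of near-identical genes), these were the 12 largest rises that met the naming rule, and none of their calls was lost without any 1 of the 4 libraries.

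Azurophil granule genes, which mark immature granulocytes, did not move as 1 group. Of 11 measured, 4 were called higher and 2 lower. The count of lower calls was 1 without 8 days off replicate A, 1 without 8 days off replicate B and 1 without 4 days off replicate A. Mpo, myeloperoxidase, stood at 405 and 359.9 CPM 8 days off, against 90.5 and 67.4 CPM 4 days off (log2 fold 2.28, SE 0.18, edgeR adjusted p = 1.6e-06), a level 4.84-fold higher 8 days off. Elane, neutrophil elastase, stood at 58.2 and 71.8 CPM 8 days off, against 28.9 and 24.1 CPM 4 days off (log2 fold 1.29, SE 0.19, edgeR adjusted p = 0.00022). Prss57, a serine protease of the same granules, stood at 123 and 143 CPM 8 days off, against 342 and 337 CPM 4 days off (log2 fold -1.35, SE 0.14, edgeR adjusted p = 1.5e-05), and so moved against Mpo and Elane.

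Genes that build ribosomes formed the group with the largest share of rises. Of 56 measured ribosome biogenesis genes, 44 were called higher and 1 lower, with a median log2 fold of 0.50, against 11.6% of all genes called higher. Higher calls numbered 25 without 8 days off replicate B and 22 without 4 days off replicate A, and the 1 lower call, Noc4l, was lost whichever of the 4 libraries was left out. Noc2l, a factor of large subunit assembly, stood at 391 and 435 CPM 8 days off, against 215 and 207 CPM 4 days off (log2 fold 0.97, SE 0.10, edgeR adjusted p = 7.4e-06). Polr1b, a subunit of RNA polymerase I, stood at 80.4 and 88.4 CPM 8 days off, against 43.6 and 45.3 CPM 4 days off (log2 fold 0.92, SE 0.11, edgeR adjusted p = 3.3e-05). Rcl1, which acts in small subunit assembly, stood at 87.6 and 92.2 CPM 8 days off, against 46.3 and 49.8 CPM 4 days off (log2 fold 0.90, SE 0.11, edgeR adjusted p = 4.7e-05). The folds were small and the replicates close. These 3 genes were chosen by low adjusted p in this comparison, so that the lack of overlap between their libraries was largely set by the choice.

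Myc, a transcription factor known to drive ribosome biogenesis, stood at 346 and 388 CPM 8 days off, against 196 and 209 CPM 4 days off (log2 fold 0.86, SE 0.09, edgeR adjusted p = 1.8e-05). Its partner Max stood at 66.5 and 65.4 CPM 8 days off, against 47.4 and 45.1 CPM 4 days off (log2 fold 0.51, SE 0.10, edgeR adjusted p = 0.0025). Mxd4, a repressor that competes for Max, stood at 102 and 104 CPM 8 days off, against 145 and 162 CPM 4 days off (log2 fold -0.57, SE 0.12, edgeR adjusted p = 0.004). Of 10 Myc network genes, 2 were called higher and 3 lower.

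The ribosomal proteins themselves were less clear. Of 79 cytosolic ribosomal protein genes, 19 were called higher and 0 lower (median log2 fold 0.41). The count of higher calls was 1 without 8 days off replicate A, 9 without 8 days off replicate B and 1 without 4 days off replicate B. Their summed level was 27962 and 24486 CPM 8 days off, against 21477 and 17512 CPM 4 days off, with replicate A above replicate B at both times. Rpl4, a large subunit protein whose call held without any 1 library, stood at 2001 and 1892 CPM 8 days off, against 1287 and 1252 CPM 4 days off (log2 fold 0.62, SE 0.13, edgeR adjusted p = 0.0041). Reads of these genes can be shared with their many pseudogenes, which makes single values uncertain.

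Many genes of amino acid supply were called higher. Of 34 measured genes of amino acid synthesis, transport and the ATF4 response, 20 were called higher and 1 lower (median log2 fold 0.43). Higher calls numbered 13 without 8 days off replicate A and 13 without 4 days off replicate A. The 1 lower call was Cbs, named after its values were seen (log2 fold -2.23), and it was lost without 8 days off replicate A or 4 days off replicate A. Psat1, an enzyme of serine synthesis, stood at 513 and 495 CPM 8 days off, against 246 and 268 CPM 4 days off (log2 fold 0.97, SE 0.11, edgeR adjusted p = 3.6e-05). Aldh18a1, an enzyme of proline synthesis, stood at 158 and 167 CPM 8 days off, against 81.9 and 89.8 CPM 4 days off (log2 fold 0.92, SE 0.11, edgeR adjusted p = 5.5e-05). Pycr1, which acts later on the same route, stood at 11.0 and 11.3 CPM 8 days off, against 3.96 and 4.10 CPM 4 days off (log2 fold 1.47, SE 0.19, edgeR adjusted p = 7e-05). The transcript of Atf4 itself was not called (log2 fold 0.07).

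About as many genes of cholesterol synthesis were called higher as were not called. Of 25 measured, 13 were called higher and 0 lower (median log2 fold 0.46). The count of higher calls was 8 without 8 days off replicate A. Hmgcs1, an early enzyme of the pathway, stood at 225 and 214 CPM 8 days off, against 112 and 117 CPM 4 days off (log2 fold 0.94, SE 0.12, edgeR adjusted p = 9.2e-05). Acat2 stood at 96.2 and 98.0 CPM 8 days off, against 50.4 and 48.2 CPM 4 days off (log2 fold 0.98, SE 0.12, edgeR adjusted p = 6.9e-05).

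Hypoxia response genes rose in part. Of 25 measured, 10 were called higher and 1 lower. Higher calls numbered 5 without 8 days off replicate A and 5 without 4 days off replicate B, against 14 without 4 days off replicate A. The lower call, Bnip3l, held only without 4 days off replicate B. Egln3, an oxygen-sensing prolyl hydroxylase, stood at 370.4 and 301 CPM 8 days off, against 192 and 119.7 CPM 4 days off (log2 fold 1.11, SE 0.16, edgeR adjusted p = 0.00024). Car12, a carbonic anhydrase, stood at 48.8 and 55.8 CPM 8 days off, against 16.3 and 21.2 CPM 4 days off (log2 fold 1.48, SE 0.20, edgeR adjusted p = 0.00011). Ddit4, an inhibitor of mTORC1, stood at 249 and 167 CPM 8 days off, against 116 and 86.4 CPM 4 days off (log2 fold 1.04, SE 0.19, edgeR adjusted p = 0.0016). In the 4 libraries replicate A was above replicate B for Egln3 and Ddit4 at both times. Of 22 glycolysis genes, 6 were called higher and 3 lower. The count of higher calls was 2 without 8 days off replicate A, 10 without 4 days off replicate A and 3 without 4 days off replicate B. Pgk1, phosphoglycerate kinase, stood at 106 and 102 CPM 8 days off, against 79.0 and 60.7 CPM 4 days off (log2 fold 0.57, SE 0.12, edgeR adjusted p = 0.0026). Hk1, hexokinase 1, stood at 313 and 310.0 CPM 8 days off, against 596 and 520.3 CPM 4 days off (log2 fold -0.84, SE 0.13, edgeR adjusted p = 0.00031).

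**Figure D5:**
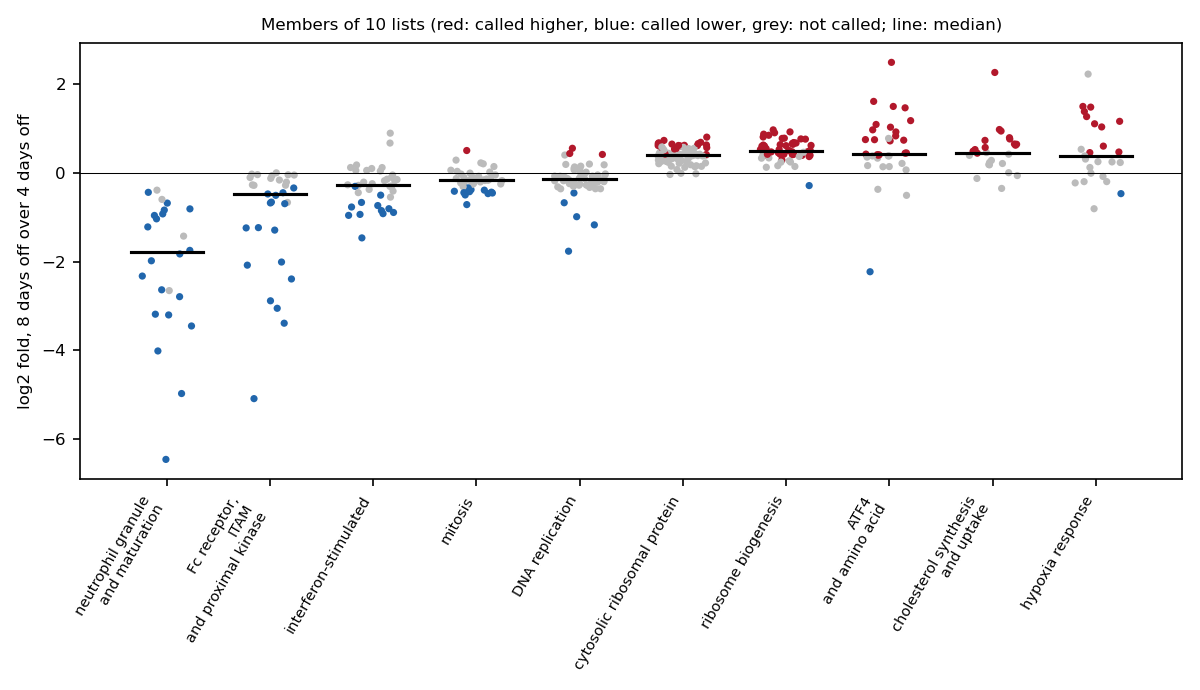
Log2 fold (8 days off over 4 days off) of each measured member of 10 gene lists, with a line at the median of each list. Red points were called higher, blue points lower and grey points were not called. The neutrophil genes reach down to -6.46 for Ngp with a median of -1.79, whereas the ribosome biogenesis genes lie in a narrow band around a median of 0.50.

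Some cytokine receptors, feedback genes and cytokine genes were called, with calls in both directions in each list. Kit, Csf2rb and Il3ra, the last 2 of which encode chains of the interleukin-3 receptor, were expressed and not called (log2 folds -0.36, -0.23 and 0.41). Of 35 cytokine receptor genes, 4 were called higher and 8 lower, against 11.6% and 12.4% of all genes. The counts were 2 to 3 higher and 4 to 6 lower when any 1 of the 4 libraries was left out. Csf3r, the receptor for G-CSF, stood at 68.4 and 84.9 CPM 8 days off, against 159 and 155 CPM 4 days off (log2 fold -1.04, SE 0.13, edgeR adjusted p = 5.2e-05). Il5ra, the interleukin-5 receptor chain, stood at 3.95 and 3.35 CPM 8 days off, against 7.22 and 8.34 CPM 4 days off (log2 fold -1.09, SE 0.20, edgeR adjusted p = 0.0013). Of 21 STAT5 feedback and target genes, 6 were called higher and 1 lower. Higher calls numbered 3 without 8 days off replicate A. Socs1, an inhibitor of cytokine signals, stood at 25.7 and 22.3 CPM 8 days off, against 9.07 and 10.0 CPM 4 days off (log2 fold 1.33, SE 0.19, edgeR adjusted p = 0.00019). Its relative Socs3 stood at 22.3 and 23.5 CPM 8 days off, against 70.0 and 58.6 CPM 4 days off (log2 fold -1.49, SE 0.13, edgeR adjusted p = 2.3e-06). Of 19 cytokine and chemokine genes, 7 were called higher and 3 lower. The counts were 2 to 8 higher and 1 to 2 lower when 1 library was left out. Il1rn, the interleukin-1 receptor antagonist, stood at 2.26 and 2.43 CPM 8 days off, against 11.7 and 11.2 CPM 4 days off (log2 fold -2.29, SE 0.17, edgeR adjusted p = 9e-07). Csf1, the growth factor of macrophages, stood at 36.0 and 36.9 CPM 8 days off, against 26.7 and 24.9 CPM 4 days off (log2 fold 0.50, SE 0.10, edgeR adjusted p = 0.003).

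Cell cycle genes were called in both directions, while the mitosis and DNA replication lists had negative median log2 folds. Ccnd2, cyclin D2, stood at 51.9 and 49.7 CPM 8 days off, against 14.8 and 16.7 CPM 4 days off (log2 fold 1.69, SE 0.15, edgeR adjusted p = 3.2e-06). Ccne1, cyclin E1, stood at 3.90 and 4.94 CPM 8 days off, against 13.5 and 16.7 CPM 4 days off (log2 fold -1.76, SE 0.19, edgeR adjusted p = 1.8e-05). Of 22 G1 cyclin and inhibitor genes, 6 were called higher and 5 lower. The counts were 2 to 4 higher and 3 to 5 lower when 1 library was left out. E2f2, a transcription factor of the G1 to S step, stood at 86.1 and 77.0 CPM 8 days off, against 142 and 141 CPM 4 days off (log2 fold -0.80, SE 0.10, edgeR adjusted p = 8.7e-05). Of 44 mitosis genes, 11 were called lower and 1 higher (median log2 fold -0.17). The count of lower calls was 3 without 8 days off replicate A, 7 without 8 days off replicate B and 4 without 4 days off replicate B. The higher call was lost without 8 days off replicate A or 4 days off replicate B. Spc24, a kinetochore protein, stood at 51.0 and 49.7 CPM 8 days off, against 87.9 and 77.4 CPM 4 days off (log2 fold -0.71, SE 0.13, edgeR adjusted p = 0.0014). Of 56 DNA replication genes, 5 were called lower and 3 higher (median log2 fold -0.15). The counts were 1 to 2 higher and 4 to 7 lower when 1 library was left out. Tk1, thymidine kinase, stood at 32.7 and 35.4 CPM 8 days off, against 73.3 and 80.3 CPM 4 days off (log2 fold -1.17, SE 0.10, edgeR adjusted p = 1.7e-06). Tyms, thymidylate synthase, stood at 68.0 and 70.9 CPM 8 days off, against 105 and 117 CPM 4 days off (log2 fold -0.67, SE 0.09, edgeR adjusted p = 0.00016). With 24.0% of all genes called, the shares of the replication list lay below the background in both directions.

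Survival, p53 and immediate-early genes showed no shared direction. Of 24 survival and death genes, 0 were called higher and 4 lower, against 11.6% and 12.4% of all genes. The median log2 fold of the list was -0.03. Fewer were called lower without 8 days off replicate A, 8 days off replicate B or 4 days off replicate B. Apaf1, the scaffold of the apoptosome, stood at 73.9 and 75.0 CPM 8 days off, against 113 and 135 CPM 4 days off (log2 fold -0.74, SE 0.15, edgeR adjusted p = 0.0026). Of 25 p53 target genes, 4 were called higher and 5 lower, against the same 11.6% and 12.4%. The counts were 2 to 4 higher and 3 to 6 lower when 1 library was left out. Ddb2, a DNA damage sensor, stood at 10.4 and 12.1 CPM 8 days off, against 27.3 and 24.8 CPM 4 days off (log2 fold -1.21, SE 0.16, edgeR adjusted p = 9.2e-05). Sesn2, a stress protein, stood at 102 and 86.0 CPM 8 days off, against 61.3 and 51.1 CPM 4 days off (log2 fold 0.74, SE 0.14, edgeR adjusted p = 0.0015). Of 23 immediate-early and heat-shock genes, 5 were called higher and 3 lower. The counts were 2 to 4 higher and 1 to 4 lower when 1 library was left out. Fos, part of the AP-1 factor, stood at 11.1 and 7.46 CPM 8 days off, against 31.9 and 43.3 CPM 4 days off (log2 fold -2.02, SE 0.40, edgeR adjusted p = 0.0038). The mitochondrial chaperone gene Hspd1 stood at 306 and 326 CPM 8 days off, against 159 and 194 CPM 4 days off (log2 fold 0.84, SE 0.13, edgeR adjusted p = 0.00036). Of 15 mitochondrially encoded genes, 6 were called lower and 0 higher. The counts were 0 to 1 higher and 2 to 7 lower when 1 library was left out. CYTB, a subunit of complex III, stood at 2966 and 2991 CPM 8 days off, against 4683 and 4187 CPM 4 days off (log2 fold -0.57, SE 0.13, edgeR adjusted p = 0.0042).

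Transcription factors of blood cells held calls in both directions, more of them lower. Of 53 measured, 3 were called higher and 9 lower, against 11.6% and 12.4% of all genes. The counts were 1 to 2 higher and 4 to 5 lower when 1 library was left out. The share of the list that was called was close to the 24.0% of all genes. Ets1, an ETS factor like PU.1, stood at 97.5 and 111 CPM 8 days off, against 196 and 210.4 CPM 4 days off (log2 fold -0.96, SE 0.14, edgeR adjusted p = 0.00023). Lmo2, a partner of GATA and TAL factors, stood at 37.0 and 38.7 CPM 8 days off, against 63.6 and 60.4 CPM 4 days off (log2 fold -0.71, SE 0.11, edgeR adjusted p = 0.00035). Klf6, a zinc finger factor, stood at 49.0 and 39.4 CPM 8 days off, against 23.3 and 20.1 CPM 4 days off (log2 fold 1.02, SE 0.13, edgeR adjusted p = 9.2e-05). Cebpa, a factor that works with PU.1 in granulocytes and was named after its values were seen, had a log2 fold of -0.78, a call that was lost without 8 days off replicate A or 4 days off replicate B. Of 15 stem and progenitor surface genes, 4 were called higher and 1 lower. The counts were 1 to 2 higher and 1 lower when 1 library was left out. Muc13, a mucin of early progenitors, stood at 22.1 and 18.3 CPM 8 days off, against 9.23 and 7.45 CPM 4 days off (log2 fold 1.27, SE 0.16, edgeR adjusted p = 8.4e-05). Cd34 stood at 26.4 and 28.9 CPM 8 days off, against 40.0 and 48.1 CPM 4 days off (log2 fold -0.67, SE 0.13, edgeR adjusted p = 0.0016). Of 10 MHC class II genes, 1 was called higher and 2 lower, against 11.6% and 12.4% of all genes. The counts were 0 to 1 higher and 1 lower when 1 library was left out. H2-Ab1, an MHC class II chain, stood at 50.8 and 38.4 CPM 8 days off, against 30.2 and 12.4 CPM 4 days off (log2 fold 1.06, SE 0.31, edgeR adjusted p = 0.025), a call that was lost without 8 days off replicate A or 4 days off replicate B, and its log2 fold was 1.85 without 4 days off replicate A.

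Markers that define a myeloid leukaemia line were present in part. Kit stood at 179 and 215 CPM 8 days off, against 242 and 263 CPM 4 days off, and Mpo and Csf2rb were expressed in both groups. Ptprc, a defining leukocyte antigen, was low in the 4 libraries, as given above, and at 0.163 and 0.148 CPM at day 0. Cd33, a myeloid surface marker in human blood, had 0 reads in the 4 libraries, which allows up to 3 reads or 0.138 to 0.192 CPM in a library, for counting error only. Among markers of other cells, 3 of 12 B cell markers were in the files, with a sum of 4.85 and 5.12 CPM 8 days off, against 4.45 and 4.99 CPM 4 days off. Of 18 T and NK cell markers 6 were in the files, 3 of them called lower, with a sum of 239.6 and 252 CPM 8 days off, against 484 and 465 CPM 4 days off. Most of that sum came from 2 genes of cytotoxic granules. Nkg7 stood at 170.1 and 177 CPM 8 days off, against 363 and 344 CPM 4 days off, and Prf1 at 45.0 and 50.9 CPM 8 days off, against 95.6 and 96.1 CPM 4 days off. The defining T cell gene Cd3g stood at 16.7 and 15.6 CPM 8 days off, against 12.8 and 13.3 CPM 4 days off. Megakaryocyte and platelet markers (10 of 15 in the files, 5 called lower and 1 higher, 0 to 1 higher and 3 to 5 lower when 1 library was left out) summed to 179 and 165 CPM 8 days off, against 484 and 459 CPM 4 days off, most of it from Itga2b. Erythroid markers (5 of 13, 1 called lower, Tfrc) summed to 363 and 318 CPM 8 days off, against 457 and 526 CPM 4 days off. Most of that sum was Tfrc, and the other 4 were not called and had positive log2 folds (median of the list 0.54). Dendritic cell markers (7 of 14, 1 called lower) summed to 69.9 and 66.6 CPM 8 days off, against 62.6 and 64.8 CPM 4 days off. Most of that sum was Bst2, which was not called, and 5 of the 7 had negative log2 folds (median of the list -0.82). Stromal markers (3 of 12, 1 called lower, Pdgfrb, a call lost without 8 days off replicate B) summed to 924 and 1032 CPM 8 days off, against 1207 and 1349 CPM 4 days off. Pecam1 and Acta2 completed that sum and were not called (log2 folds -0.35 and -0.47). The part of other cells in the falls of the myeloid genes was not tested.

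The change from 4 to 8 days off was also set against the change over the first 4 days off, in which edgeR called 5029 genes (36.8%). The difference of the 2 log2 changes was called for 1632 genes (12.0%), 766 positive and 866 negative, and both changes share the 4 days off libraries. Scaling by library size alone gave 1704 calls with 607 positive and 1097 negative, and shifted the median difference to -0.12. The count was 363 without 4 days off replicate A, 944 without day 12 replicate A, 996 without day 12 replicate B and 1060 without 8 days off replicate B. The fit without the 12 days off pair gave 3319, and the fit of the 3 groups alone 3411. Of the 5 genes with the most negative differences that met the naming rule, 4 had risen over the first 4 days and the other, Ngp, had changed little. Podnl1, a leucine-rich repeat protein, stood at 15.5 and 20.7 CPM 8 days off, against 79.7 and 59.0 CPM 4 days off and at 13.6 and 14.3 CPM at day 12 (difference of log2 changes -4.26, SE 0.32, edgeR adjusted p = 4.1e-06). Syt8, a synaptotagmin, stood at 7.39 and 10.8 CPM 8 days off, against 36.5 and 25.8 CPM 4 days off and at 3.78 and 5.16 CPM at day 12 (difference -4.57, SE 0.38, edgeR adjusted p = 4.9e-06). Both genes peaked at 4 days off among these 3 times. Ngp stood at 15.5 and 14.7 CPM at day 12, close to its level 4 days off, and fell afterwards (difference -6.75, SE 0.56, edgeR adjusted p = 4.9e-06). Kis2 stood at 32.4 and 25.5 CPM 8 days off, against 27.9 and 20.8 CPM 4 days off and at 0.456 and 0.719 CPM at day 12, so that its rise came before 4 days off (difference -5.10, SE 0.39, edgeR adjusted p = 4.2e-06). Rgs11, a regulator of G-protein signals, stood at 22.9 and 19.7 CPM 8 days off, against 83.5 and 29.7 CPM 4 days off (difference -5.70, SE 0.59, edgeR adjusted p = 5.9e-05), and the difference was -3.83 without 4 days off replicate A, which was far above replicate B. Its call between 8 and 4 days off was lost without 8 days off replicate A, 8 days off replicate B or 4 days off replicate A.

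The 5 genes with the most positive differences had all fallen over the first 4 days. Scd1 stood at 128 and 128 CPM at day 12, fell by 4 days off and was above that level 8 days off (difference 4.16, SE 0.37, edgeR adjusted p = 9.9e-06). Slc24a3, a sodium and calcium exchanger, stood at 15.0 and 14.9 CPM 8 days off, against 4.24 and 4.10 CPM 4 days off and at 22.5 and 22.5 CPM at day 12 (difference 4.26, SE 0.31, edgeR adjusted p = 4e-06). Cdh17, a cadherin, stood at 0.894 and 0.441 CPM 8 days off, against 0.489 and 0.695 CPM 4 days off and at 44.0 and 43.9 CPM at day 12, so that its fall came before 4 days off (difference 6.39, SE 0.59, edgeR adjusted p = 1e-05). Prg3 and Ear6, both eosinophil granule genes, fell over the first 4 days and not over the next 4. Prg3 stood at 26.7 and 18.6 CPM 8 days off, against 18.2 and 22.4 CPM 4 days off and at 276 and 321 CPM at day 12 (difference 4.04, SE 0.63, edgeR adjusted p = 0.0014). Ear6 stood at 12.4 and 11.3 CPM 8 days off, against 4.89 and 6.19 CPM 4 days off and at 35.8 and 45.0 CPM at day 12 (difference 3.97, SE 0.55, edgeR adjusted p = 0.00034), its call between 8 and 4 days off was lost without 8 days off replicate A, 8 days off replicate B or 4 days off replicate A, and its reads may be shared with the other Ear genes.

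Set against the last step, in which edgeR called 507 genes (3.71%) between 12 and 8 days off, the change from 4 to 8 days differed for 117 genes (0.857%), 59 positive and 58 negative. Scaling by library size alone gave 110 calls, 69 positive and 41 negative. The count rests on single libraries, being 2 without 8 days off replicate A, 9 without 8 days off replicate B, 30 without 4 days off replicate B, 310 without 12 days off replicate A and 3356 without 12 days off replicate B, and the fit of the 3 groups alone called 0 genes by edgeR, with 835 at an unadjusted p under 0.05. With all 16 libraries DESeq2 called 310. Clec12a (difference -2.55, SE 0.38, edgeR adjusted p = 0.0066) had 19.3 and 12.8 CPM 12 days off, near its level 8 days off. Mpo (difference 2.12, SE 0.29, edgeR adjusted p = 0.0047) had 386 and 468 CPM 12 days off, also near its level 8 days off. Ces1d, a carboxylesterase, stood at 47.2 and 48.4 CPM 8 days off, against 152 and 132 CPM 4 days off and at 62.4 and 62.7 CPM 12 days off (difference -1.96, SE 0.20, edgeR adjusted p = 0.00075), the only one of the 10 genes named here whose call held without any 1 of the 6 libraries of the contrast. Elane had 24.2 and 32.6 CPM 12 days off and so fell again (difference 2.49, SE 0.31, edgeR adjusted p = 0.0033). Ptgds and Itgam kept moving in their direction, with 2558 and 1331 CPM and 1.08 and 1.51 CPM 12 days off, but by less on the log2 scale than from 4 to 8 days (difference 2.98, SE 0.46, edgeR adjusted p = 0.0095 for Ptgds, and -1.98, SE 0.41, edgeR adjusted p = 0.039 for Itgam). The difference of Itgam was not called with limma-voom (adjusted p = 0.094) or without 8 days off replicate A, 8 days off replicate B or 4 days off replicate B. Tle6 and Socs3 had negative differences (-1.87, SE 0.33, edgeR adjusted p = 0.019 for Tle6, and -1.77, SE 0.23, edgeR adjusted p = 0.0033 for Socs3). Scd1 and Tlr4 had positive ones (2.20, SE 0.32, edgeR adjusted p = 0.006 for Scd1, and 2.23, SE 0.34, edgeR adjusted p = 0.0066 for Tlr4).

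Cells 8 days off were not at the day 0 level in all genes. Between 8 days off and day 0, edgeR called 4525 genes (33.1%), 2217 higher and 2308 lower 8 days off, and 2533 to 3385 when 1 of these 4 libraries was left out (2709 without day 0 replicate A, 2891 without 8 days off replicate A and 2533 without 8 days off replicate B). Spi1 stood at 48.1 and 44.8 CPM 8 days off, against 66.3 and 56.8 CPM at day 0 (log2 fold -0.41, SE 0.15, edgeR adjusted p = 0.051). Spp1 stood at 722 and 588 CPM 8 days off, against 50.7 and 71.2 CPM at day 0 (log2 fold 3.43, SE 0.17, edgeR adjusted p = 3e-08). Egln3 stood at 370.4 and 301 CPM 8 days off, against 56.0 and 53.6 CPM at day 0 (log2 fold 2.61, SE 0.17, edgeR adjusted p = 3.1e-07). Stc2, a secreted glycoprotein of the stress response, stood at 109.6 and 104 CPM 8 days off, against 9.51 and 12.7 CPM at day 0 (log2 fold 3.28, SE 0.24, edgeR adjusted p = 7.1e-07). These 3 genes were far above the untreated level after having risen between 4 and 8 days off. Ccnd2 stood at 51.9 and 49.7 CPM 8 days off, against 14.4 and 18.1 CPM at day 0 (log2 fold 1.65, SE 0.15, edgeR adjusted p = 3.9e-06). Muc13 was still below day 0, at 22.1 and 18.3 CPM 8 days off, against 88.9 and 82.2 CPM at day 0 (log2 fold -2.09, SE 0.15, edgeR adjusted p = 6.5e-07), as was Il5ra, at 3.95 and 3.35 CPM 8 days off, against 17.8 and 11.9 CPM at day 0 (log2 fold -2.03, SE 0.19, edgeR adjusted p = 4.3e-06). CYTB stood at 2966 and 2991 CPM 8 days off, against 10735 and 8566 CPM at day 0 (log2 fold -1.70, SE 0.13, edgeR adjusted p = 7.7e-07). Myc stood at 346 and 388 CPM 8 days off, against 334 and 343 CPM at day 0 (log2 fold 0.12, SE 0.09, edgeR adjusted p = 0.35). Polr1b stood at 80.4 and 88.4 CPM 8 days off, against 102 and 88.4 CPM at day 0 (log2 fold -0.17, SE 0.11, edgeR adjusted p = 0.22). Wdr75, another ribosome biogenesis gene, stood at 105 and 108 CPM 8 days off, against 103 and 102 CPM at day 0 (log2 fold 0.06, SE 0.09, edgeR adjusted p = 0.66).

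Over the means of the 8 groups, the genes most like Itgam among those with a mean of at least 10 CPM were Timp2, Ddx58, Slc35e1, Tmem50b and Hipk3, with Pearson r of log2 CPM from 0.996 to 0.999, given as a description. The points share their libraries and the treatment course. Timp2, an inhibitor of matrix proteases, stood at 27.8 and 31.4 CPM 8 days off, against 71.4 and 77.0 CPM 4 days off (log2 fold -1.33, SE 0.11, edgeR adjusted p = 2.1e-06). Tmem50b stood at 18.3 and 18.8 CPM 8 days off, against 52.0 and 61.6 CPM 4 days off (log2 fold -1.61, SE 0.11, edgeR adjusted p = 4.5e-07). The falls of these genes from 4 to 8 days off were smaller than that of Itgam.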

How the data were processed

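Bulk RNA of AML246 cells was sequenced in 16 libraries, 2 in each of 8 groups, and 8 days off doxycycline was set against 4 days off. Each deposited file gives, per the file headers, an Entrez ID, a gene length and a read count that is a whole number. The submitters' processing notes name featureCounts, edgeR, limma and mm10. The aligner and the strand setting are not given in the sources used here, so reads of overlapping, antisense and near-identical genes (Ear, Ces, H2, Ly6 and histone families, ribosomal proteins) cannot be assigned with certainty. Every listed gene exceeded 0.5 CPM in at least 3 libraries, so genes below that level were not analysed here. Symbols came from a RefSeq GRCm38.p6 table by Entrez ID (13216 of 13652 matched), and promoters from RefSeq on that build.

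Counts were fitted with edgeR 4.0.16 in R 4.3.3 (TMM, robust quasi-likelihood F test, all 16 libraries, 8 residual degrees of freedom). The low-count filter removed 0 genes, and the common biological coefficient of variation was 10.9%. Tests were two-sided, and p-values were adjusted over all 13652 genes. SE is the log2 fold divided by the root of F. DESeq2 1.42.0 and limma 3.58.1 (voom) were alternatives. Counts were also simulated with the library sizes and spread of these data. There the recovered share was 38.8% for genes changed 1.5-fold, 83.4% for 2-fold changes and 98.3% for 4-fold changes. The changed genes were few, had a mean of at least 1 CPM and were changed only 8 days off. All other gene means were equal in all groups, unlike in the data, so these shares may not hold for the data.

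The members and the 41 gene lists were chosen with earlier results of these data known. Named genes were Spi1 and Itgam, the 12 largest called rises and falls (mean CPM at least 10, libraries of the groups not overlapping), up to 4 genes of lowest adjusted p in each list, the 5 largest step differences in each direction and the 5 genes most like Itgam.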

Additional observations from a re-analysis of the deposited data

Results flagged for a closer look

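The log2 change from 4 to 8 days off differed from that of another step for the genes below, by the edgeR test of the difference itself. The genes are those named by size, so the values describe the largest differences.

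Against the first 4 days off, the difference was positive for Cdh17 (6.39), Slc24a3 (4.26), Scd1 (4.16), Prg3 (4.04) and Ear6 (3.97). It was negative for Ngp (-6.75), Rgs11 (-5.70), Kis2 (-5.10), Syt8 (-4.57) and Podnl1 (-4.26). None of these 10 calls was lost under the alternative settings or without any 1 of the 6 libraries of the contrast. The value for Rgs11 ran from -6.82 to -3.83 and that for Ngp from -8.74 to -5.97 as single libraries were left out.

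Against the change from 8 to 12 days off, the difference was positive for Ptgds (2.98), Elane (2.49), Tlr4 (2.23), Scd1 (2.20) and Mpo (2.12). It was negative for Clec12a (-2.55), Itgam (-1.98), Ces1d (-1.96), Tle6 (-1.87) and Socs3 (-1.77). All 10 calls were lost in the fit of the 3 groups alone, and all but that of Ces1d were lost without at least 1 library of 8 days off. The call of Itgam was also lost with limma-voom and without 4 days off replicate B, and that of Ptgds without 4 days off replicate B. The libraries of 12 days off had a chi-square per degree of freedom of 73.55 between them, and their part in these differences was not tested.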

How the results depend on the processing

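The number of calls between 8 and 4 days off was 3288 with RLE size factors, 3355 with library sizes alone, 3214 with a filter at a mean of 1 CPM, 3249 with DESeq2 and 3282 with limma-voom. It was 4107 in the fit of the 4 libraries alone, 5205 without the 12 days off pair (a setting chosen after seeing the data), and 1532 to 2027 when 1 of the 4 libraries was left out. Library sizes alone gave 1784 of the 3355 calls as higher (53.2%), against 48.2% with TMM. The difference from the first step was called for 3411 genes in the fit of the 3 groups alone, 3319 without the 12 days off pair and 363 to 1196 when 1 library was left out. The difference from the last step was called for 310 genes with DESeq2, 0 by edgeR in the fit of the 3 groups alone (where 835 genes had an unadjusted p under 0.05), and 2 to 3356 when 1 library was left out. Between 8 days off and day 0, 2533 to 3385 genes were called when 1 library was left out. The cause was not tested in any of these. Of 720 log2 folds of the 180 named genes with 1 library left out, 58, in 28 genes, were no longer called and 0 reversed. Of 1785 under other settings, 3 were no longer called (2 of them of Ly6a), 9 became called and 0 reversed. Replicates A and B share only a letter across groups, and the labels do not pair them. The A minus B differences of 8 and 4 days off correlated at 0.47 across 9407 genes, and 11 of 28 pairs of groups exceeded 0.1. A replicate block gave 3581 calls. At this depth a count of 0 allows up to 3 reads, or 0.138 to 0.192 CPM in the 4 libraries.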
